A study of Mus musculus with 12 samples.

Results

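The genes described here are 8 targets of the hypoxia-inducible factors (HIFs) that act outside glycolysis, chosen by name from the deposited gene table. They are Ak4, Ndrg1, Mxi1, Ero1l, Ddit4, Adm, Higd1a and Bhlhe40, and all 8 had a row among the 32544 genes of the table. All 8 also had enough counts to be among the 14285 genes tested. RNA was sequenced from bone marrow-derived macrophages (BMDMs) 24 h after seeding and from NIH/3T3 fibroblasts, an immortalised mouse embryonic fibroblast line, after 72 h in medium that such BMDMs had conditioned. There were 4 groups of 3 libraries. The first was WT BMDMs (LysMCre), the second PHD2cko BMDMs (conditional loss of PHD2 through LysMCre), the third 3T3 fibroblasts in WT medium and the fourth 3T3 fibroblasts in PHD2cko medium. The labels write PHD2_WT and PHD2_KO for these genotypes. Every BMDM group therefore carried Cre recombinase under the lysozyme M promoter, which is active in myeloid cells, and both fibroblast groups saw medium from such cells. The sources used here do not name the age of the marrow donors, the oxygen level of the sequenced cultures or whether the 3 libraries of a group came from separate animals, so that p-values measure only the spread between these libraries, which may be technical.

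PHD2 is the main oxygen sensor of the HIF system. It hydroxylates the HIF alpha subunits when oxygen is present and so marks them for destruction, and when it is inactive the alpha subunits pair with ARNT and bind the core letters ACGTG or GCGTG near their target genes. The glycolytic enzymes are the best known targets. The genes treated here serve other parts of the response to low oxygen. Ak4 is an adenylate kinase of the mitochondrial matrix, and Higd1a is a small protein of the inner mitochondrial membrane linked to the respiratory chain. Mxi1 encodes a partner of MAX that opposes MYC, and Bhlhe40 a transcriptional repressor that also belongs to the circadian clock. Ddit4 (REDD1) restrains the growth kinase mTORC1. Ero1l, the mouse ERO1 alpha oxidase, renews the oxidising power needed for disulphide bonds in the endoplasmic reticulum. Ndrg1 is a cytoplasmic protein induced by hypoxia and differentiation, and Adm encodes adrenomedullin, a secreted vasodilator peptide.

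Because HIF acts through short DNA letters, the start regions of the genes were searched for them first. RefSeq windows on GRCm38.p6, each from 250 bases before to 50 bases after a transcription start, were found for 6 of the 8 genes (Ero1l under its current symbol Ero1a). Windows for Ndrg1 and Bhlhe40 were not used here. Of the 11 windows of these 6 genes, 10 held ACGTG or GCGTG on either strand, and each of the 6 genes had at least 1 window with a match. Among all 32851 windows of the same length 43.8% held a match, and among all 27025 genes 46.7% did, so the letters are common. The windows of the 6 genes were 56 to 80.3% G and C. ACGTG is also part of the palindrome CACGTG, the E-box that MYC, MAX and Bhlhe40 bind, which 7.15% of all windows held and which occurred in 1 window of Ak4. A match is a string of letters and no evidence of binding.

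The stretches below are shown because they belong to the gene with the largest rise in macrophages (Ak4), another gene that rose there (Mxi1), a gene near the threshold there (Ero1l), the gene that fell in fibroblasts (Ddit4), and 2 genes that passed the threshold in neither PHD2cko comparison (Adm and Higd1a). Each is read 5′ to 3′ along the strand of its gene, and capitals mark ACGTG or GCGTG, or the same letters read on the opposite strand (CACGT or CACGC). The Ak4, Ddit4 and Adm stretches lie upstream of every exon that GENCODE M21 gives the gene.
Ak4, chr4:101419127-101419276, plus strand: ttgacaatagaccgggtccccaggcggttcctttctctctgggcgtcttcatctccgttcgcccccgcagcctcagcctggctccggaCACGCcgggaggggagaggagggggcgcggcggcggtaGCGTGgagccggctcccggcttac
Mxi1, chr19:53329335-53329364, plus strand: cctcggcacccgACGTGcactggcgggggg
Ero1l, chr14:45318643-45318672, minus strand: cgcccgaggctcGCGTGgacagaggcgcgc
Ddit4, chr10:59951835-59951984, minus strand: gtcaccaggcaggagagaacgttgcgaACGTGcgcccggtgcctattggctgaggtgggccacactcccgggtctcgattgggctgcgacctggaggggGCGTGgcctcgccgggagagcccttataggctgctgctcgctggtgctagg
Adm, chr7:110627507-110627656, plus strand: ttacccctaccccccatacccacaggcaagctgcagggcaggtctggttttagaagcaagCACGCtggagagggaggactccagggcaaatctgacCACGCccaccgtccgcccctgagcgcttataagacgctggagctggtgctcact
Higd1a, chr9:121857849-121857878, minus strand: ccggtctagcctGCGTGCGTGgcgttcgcg

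The members of the set lie on 8 different chromosomes in the GENCODE M21 annotation of GRCm38. They are Ak4 (ENSMUSG00000028527.18, chr4:101419277-101466995), Ndrg1 (ENSMUSG00000005125.13, chr15:66929318-66969640), Mxi1 (ENSMUSG00000025025.14, chr19:53310518-53375810), Ero1l (ENSMUSG00000021831.9, chr14:45283087-45318771), Ddit4 (ENSMUSG00000020108.4, chr10:59949669-59951834), Adm (ENSMUSG00000030790.15, chr7:110627661-110629820), Higd1a (ENSMUSG00000038412.8, chr9:121848563-121858362) and Bhlhe40 (ENSMUSG00000030103.11, chr6:108660629-108666925). Counts of Higd1a are uncertain, because its transcripts share 288 bases at 99.3% identity with the processed pseudogene Gm9790, whose own row held 19 to 59 counts per library. Ak4 shares 672 bases at 99.6% identity with the pseudogene Ak3l2-ps, which held 0 or 1 counts. Ndrg1, Mxi1, Adm, Higd1a and Bhlhe40 overlap genes on the opposite strand, and the sources used here do not state whether counting used strand.

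The library totals ran from 15516465 to 25199770 estimated counts. Values below are CPM, counts scaled to a normalised library size of 1e6, unless stated otherwise. The marker sums and the macrophage shares taken from them were instead scaled to the library totals, without that normalisation. Macrophage markers were high in all BMDM libraries, with a sum over 23 genes of 47309 to 48520 CPM in WT and 42392 to 43907 CPM in those labelled PHD2cko. Fibroblast markers were high in all 3T3 libraries, with a sum over 12 genes of 31226 to 36616 CPM in WT medium and 37481 to 39682 CPM in PHD2cko medium. Both sums thus moved with the label without overlap. Gene by gene, none of the 23 macrophage markers passed an edgeR adjusted p of 0.05 in BMDMs, with 12 higher and 11 lower. Of the 12 fibroblast markers in 3T3 fibroblasts, 5 passed as higher and 2 as lower in PHD2cko medium. Over all genes these shares were 8.93% and 6.75%, and in BMDMs 3.38% higher and 3.35% lower. The part of the sums in the results below was not tested. In the 3T3 fibroblasts the macrophage marker sum was 23.3 to 25.3 CPM in WT medium and 225 to 1008 CPM in PHD2cko medium. As a share of the BMDM level these sums were 0.0487 to 0.0529% in WT medium and 0.523 to 2.35% in PHD2cko medium. In such bulk samples more cells of a type and more RNA per cell cannot be told apart. Replicate 1 of the 3T3 fibroblasts in WT medium stood apart from the other two: the chi-square over its degrees of freedom was 25.1 and 27.0 against them and 2.35 between them. By the correlation of log2 CPM the lowest values, 0.982 and 0.985, belonged to PHD2cko medium replicate 2. WT medium replicate 1 had 0.989 and 0.988. PHD2cko medium replicate 2 also had the macrophage share of 0.523%. Egln1, which encodes PHD2 and is itself a HIF target, did not fall in the libraries labelled PHD2cko. It was 55.4 ± 0.574 CPM (SD, n = 3) in WT BMDMs and 69.6 ± 1.77 CPM in the BMDMs labelled PHD2cko, a rise of 25.7% with an edgeR adjusted p of 0.00203. The estimate covers the whole gene and does not separate a deleted part, so it neither shows nor excludes the deletion, and every direction below is one between libraries as labelled.

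The first comparison asked which of these genes differ between BMDMs labelled PHD2cko and WT BMDMs. Ak4, Mxi1 and Ndrg1 were higher in the libraries labelled PHD2cko, Ak4 by 6.34-fold and the other two by about 1.2-fold. None of the 8 genes was lower past the threshold. Of all genes tested 3.38% were called higher and 3.35% lower by the same rule, an adjusted p under 0.05 in edgeR's quasi-likelihood test. Without regard to that test, 4 of the 8 genes (Ak4, Ndrg1, Mxi1 and Ero1l) had every PHD2cko library above every WT library and 1 (Bhlhe40) had every PHD2cko library below, where 16.3% of all genes had such a gap upwards and 15.6% downwards.

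**Figure D1:**
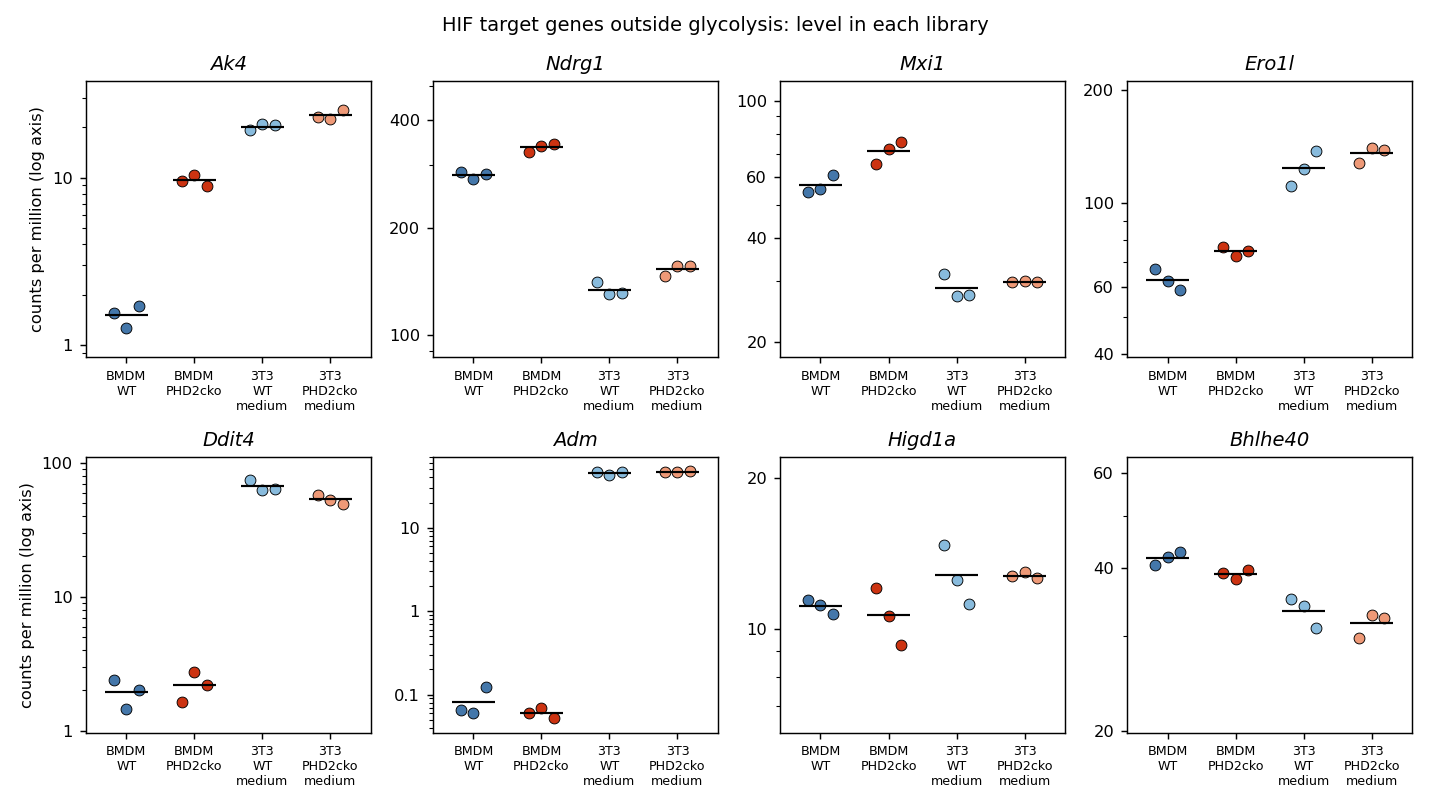
Level of each of the 8 genes in the 12 libraries, in CPM on a log axis that differs between panels, with 3 points per group and a line at the group mean. Ak4 lies between 1.27 and 1.70 in WT BMDMs and between 8.87 and 10.5 in the BMDMs labelled PHD2cko, while Adm and Ddit4 are separated mainly by cell type.

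Ak4 supplied by far the widest gap. It had 24, 21 and 28 estimated counts in the 3 WT BMDM libraries and 158, 153 and 169 in the 3 labelled PHD2cko. In CPM it was 1.56, 1.27 and 1.70 in WT and 9.59, 10.5 and 8.87 in PHD2cko, so the lowest PHD2cko library lay well above the highest WT library. The fitted log2 fold change was 2.66 (SE 0.128, 95% confidence interval 2.39 to 2.94), with an edgeR adjusted p of 9.69e-08. Under the other settings tried, including each library left out in turn, this log2 value stayed between 2.55 and 2.76 and passed the threshold each time.

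Ndrg1 was the most abundant of the genes, per kilobase as well, and changed little in proportion. It measured 287, 274 and 284 CPM in WT BMDMs and 326, 340 and 343 CPM in those labelled PHD2cko, without overlap. The log2 fold change was 0.26 (SE 0.0486, adjusted p = 0.00627), a rise of 19.5%. Mxi1, the MYC antagonist, measured 54.5, 55.4 and 61.0 CPM in WT and 65.6, 72.6 and 76.0 CPM in PHD2cko. Its groups did not overlap either, with the gap between the nearest libraries smaller than the range within each group. The log2 fold change of Mxi1 was 0.33 (SE 0.0698, adjusted p = 0.0137), a rise of 25.3%. This call did not stand on every library, since the adjusted p went to between 0.059 and 0.0805 without WT replicate 1, WT replicate 2, PHD2cko replicate 2 or PHD2cko replicate 3.

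Ero1l, the oxidase of the endoplasmic reticulum, lay at the threshold. Its values were 66.9, 62.2 and 58.8 CPM in WT BMDMs and 76.5, 72.6 and 75.0 CPM in the libraries labelled PHD2cko, again without overlap. The log2 fold change of 0.25 (SE 0.0769, 95% interval 0.09 to 0.42) was close to that of Ndrg1, but the adjusted p was 0.0734. It became 0.042 in DESeq2's Wald test and 0.00117 when the 6 BMDM libraries were fitted alone.

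Ddit4, the mTORC1 inhibitor, was scarce in macrophages and showed no detectable difference at this depth. It had 37, 24 and 33 counts in WT and 27, 40 and 42 in PHD2cko, which is 2.40, 1.45 and 2.01 CPM against 1.64, 2.73 and 2.20 CPM. The groups overlapped, and the interval of the log2 fold change ran from -0.37 to 0.69 (adjusted p = 0.819). Adm was near absent, with 1, 1 and 2 counts in WT BMDMs and 1 count in each library labelled PHD2cko. No fold is given for Adm in BMDMs, since both groups lay under a floor of 3 counts per library.

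Higd1a and Bhlhe40 gave no call in macrophages. Higd1a measured 11.4, 11.1 and 10.7 CPM in WT and 12.1, 10.6 and 9.29 CPM in PHD2cko, where the PHD2cko libraries spread across the whole WT range. Its log2 fold change was -0.06 (95% interval -0.31 to 0.18, adjusted p = 0.857). Bhlhe40 measured 40.5, 42.1 and 43.0 CPM in WT and 39.2, 38.2 and 39.7 CPM in PHD2cko, so each PHD2cko library was below each WT library by a small step. With a log2 fold change of -0.10 (95% interval -0.23 to 0.03) and an adjusted p of 0.398, Bhlhe40 did not pass the threshold.

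The second comparison asked whether the genes differ in 3T3 fibroblasts according to the label of the BMDMs that had conditioned their medium. Ndrg1 rose by 14.2% and Ddit4 fell by 20.5% in PHD2cko medium, and the other 6 genes were not called. Over all genes tested, 8.93% were called higher and 6.75% lower in PHD2cko medium. Ak4 and Ndrg1 had every library in PHD2cko medium above every library in WT medium, and Ddit4 had every such library below, against 15.4% of all genes above and 16.5% below without overlap.

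**Figure D2:**
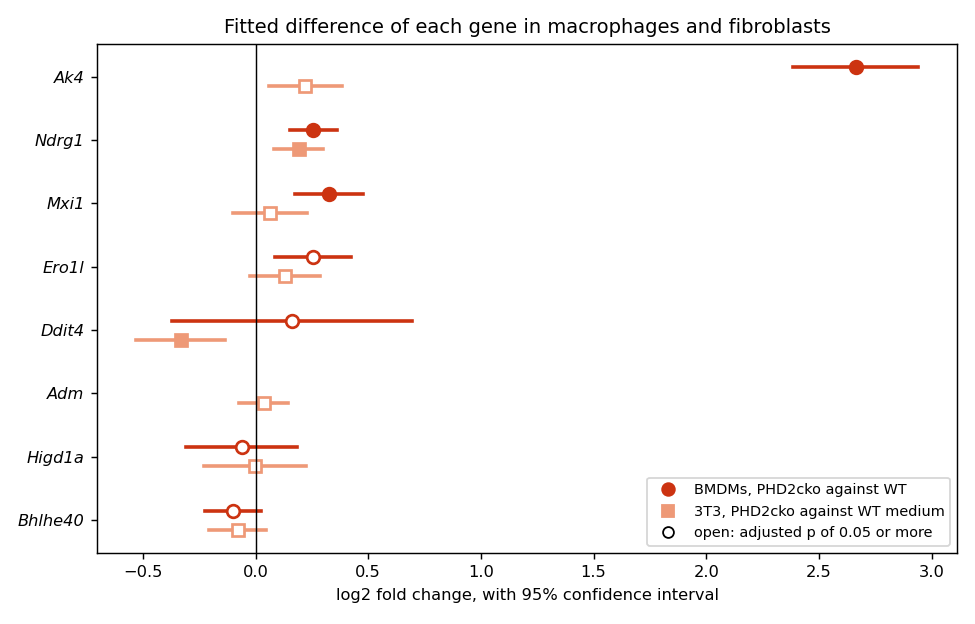
Fitted log2 fold change of each gene (x axis) with its 95% confidence interval, circles for BMDMs and squares for 3T3 fibroblasts, filled where the adjusted p was under 0.05 and open otherwise. Ak4 in BMDMs, at 2.66, stands far to the right of every other value, Ndrg1 is filled in both cell types, Ddit4 is filled on the negative side in fibroblasts only, and Adm in BMDMs is not drawn because it was under the floor.

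Ndrg1 measured 140, 130 and 131 CPM in fibroblasts in WT medium and 146, 156 and 157 CPM in PHD2cko medium. The log2 fold change was 0.19 (SE 0.0493, adjusted p = 0.0205), and the step between the nearest libraries was smaller than the spread within either group. Macrophage RNA moved with the medium, and Ndrg1 was more abundant in BMDMs than in fibroblasts. By the marker share at most 4.36% of the Ndrg1 count of a fibroblast library could be counted to it, and with that share subtracted the log2 fold change was 0.18 (adjusted p = 0.0273). The Ndrg1 call was lost when the 6 fibroblast libraries were fitted alone (adjusted p = 0.0787), with a replicate block (0.061), and without WT medium replicate 2, WT medium replicate 3 or PHD2cko medium replicate 3 (0.0544 to 0.0906).

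Ddit4, in contrast to macrophages, was abundant in fibroblasts. It measured 74.0, 63.0 and 64.3 CPM in WT medium and 57.8, 52.6 and 49.5 CPM in PHD2cko medium, without overlap. The highest value came from WT medium replicate 1, the library that stood apart by the chi-square. The log2 fold change was -0.33 (SE 0.0907, 95% interval -0.53 to -0.13, adjusted p = 0.0273), and at most 0.0978% of the Ddit4 count could be macrophage RNA by the marker share. The adjusted p went to 0.0657 when the 6 fibroblast libraries were fitted alone, and to 0.0643 and 0.122 without PHD2cko medium replicate 2 or 3.

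Ak4 in fibroblasts was 19.3, 21.0 and 20.6 CPM in WT medium and 23.2, 22.3 and 25.3 CPM in PHD2cko medium. The groups did not overlap, but the log2 fold change of 0.22 (SE 0.0747, 95% interval 0.06 to 0.38) had an adjusted p of 0.0657 in edgeR and 0.0352 in limma-voom. For Ero1l the values were 111, 123 and 137 CPM against 128, 140 and 139 CPM, which overlapped, with a log2 fold change of 0.13 (adjusted p = 0.258) that was 0.08 without WT medium replicate 1 and 0.21 without WT medium replicate 3. Mxi1 was 31.6, 27.2 and 27.3 CPM in WT medium and 29.8, 30.1 and 29.9 CPM in PHD2cko medium. Its log2 fold change was 0.06 (95% interval -0.10 to 0.23, adjusted p = 0.63), with WT medium replicate 1 above all other fibroblast libraries, and it was 0.16 without that library and 0.02 and 0.03 without WT medium replicate 2 or 3.

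Adm was expressed in fibroblasts at 46.9, 42.7 and 46.9 CPM in WT medium and 46.7, 45.9 and 47.2 CPM in PHD2cko medium. The interval of its log2 fold change, -0.07 to 0.15 (adjusted p = 0.691), lay close to 0 on either side. Higd1a was 14.7, 12.5 and 11.2 CPM in WT medium, a wider range than the 12.7, 13.0 and 12.6 CPM in PHD2cko medium that it enclosed. Bhlhe40 was 35.1, 34.1 and 31.0 CPM against 29.8, 32.8 and 32.4 CPM, with a log2 fold change of -0.08 (95% interval -0.21 to 0.05, adjusted p = 0.398). This value was -0.03 without WT medium replicate 1, -0.04 without PHD2cko medium replicate 1 and -0.13 without WT medium replicate 3. Neither Higd1a nor Bhlhe40 passed the threshold in fibroblasts.

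Whether the effect of the label differed between the cell types was tested by the interaction term of the same fit, the effect in 3T3 fibroblasts minus that in BMDMs. The label stood for the genotype of the sequenced cells in BMDMs and for the source of the medium in fibroblasts. A difference in exposure and a difference between cell types therefore cannot be told apart here. Over all genes, 7.71% had a higher and 4.58% a lower effect in fibroblasts. Ak4 was the only gene of the set that passed, with a difference of -2.44 on the log2 scale (SE 0.151, 95% interval -2.77 to -2.11, adjusted p = 2.25e-06). For Ndrg1, called in both cell types, the difference was -0.07 (95% interval -0.22 to 0.08, adjusted p = 0.61). The fall of Ddit4 in fibroblasts was not shown to be particular to them, since its difference of -0.49 had an interval of -1.06 to 0.08 (adjusted p = 0.267), wide because of the low macrophage counts. Mxi1 had a difference of -0.26 (95% interval -0.49 to -0.04) and an adjusted p of 0.126. With 1 library left out in turn, the difference ran from -0.66 to -0.32 for Ddit4 and from -0.32 to -0.17 for Mxi1.

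A wider separation than either PHD2cko comparison gave lay between the cell types, with the limit that BMDMs and fibroblasts also differed in origin, medium and culture time, which cannot be told apart here. In WT BMDMs against 3T3 fibroblasts in WT medium, Ndrg1, Mxi1 and Bhlhe40 were higher and Ak4, Ero1l, Ddit4 and Adm lower, where 40.4% of all genes were called higher and 44.9% lower. Ndrg1 was 2.10-fold, Mxi1 1.99-fold and Bhlhe40 1.25-fold higher in BMDMs. Adm was at least 283-fold lower in BMDMs, computed against a floor of 3 counts per library. This bound used values scaled to the library totals, without the normalisation of the CPM given elsewhere. The log2 fold changes of Ddit4 and Ak4 were -5.10 and -3.74, and that of Ero1l was -0.98. Higd1a was not called between the cell types, with a log2 fold change of -0.21 (95% interval -0.44 to 0.03, adjusted p = 0.0923). It passed with at least 10 counts in every library compared (-0.26, adjusted p = 0.0363) and without WT medium replicate 3 (-0.29, adjusted p = 0.0244), and was -0.11 without WT medium replicate 1.

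The order of the genes by level differed with the label in each cell type. Per kilobase of the longest coding transcript, Ndrg1 led in WT BMDMs at 97.4 ± 2.36 CPM per kb (SD, n = 3), followed by Ero1l at 14.2 ± 0.928, Bhlhe40 at 13.4 ± 0.398 and Mxi1 at 11.3 ± 0.705, of which Ero1l and Bhlhe40 overlapped. Higd1a stood at 4.97 ± 0.162, Ddit4 at 1.11 ± 0.272, Ak4 at 0.347 ± 0.0504 and Adm at 0.0593 ± 0.0245 CPM per kb. In the BMDMs labelled PHD2cko, Ak4 (2.03 to 2.40 CPM per kb) passed Ddit4 (0.934 to 1.56), and Mxi1 (13.0 to 15.1) stood above Bhlhe40 (12.3 to 12.7). Fibroblasts in WT medium had Ndrg1 at 46.4 ± 1.93, Ddit4 at 38.2 ± 3.44, Adm at 32.7 ± 1.73 and Ero1l at 28.0 ± 3.00 CPM per kb, with Adm and Ero1l overlapping. There, Bhlhe40 at 10.7 ± 0.691, Higd1a at 5.73 ± 0.793, Mxi1 at 5.70 ± 0.496 and Ak4 at 4.65 ± 0.202 CPM per kb followed, with Higd1a and Mxi1 not separable. In PHD2cko medium Ddit4 ranged from 28.2 to 32.9 CPM per kb and lay just under Adm at 33.0 to 33.9, where in WT medium it had been above. Ddit4 then overlapped Ero1l, at 28.9 to 31.8 CPM per kb, and Mxi1 at 5.92 to 5.97 lay just above Higd1a at 5.64 to 5.81.

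Set beside 34 other HIF targets outside glycolysis, chosen from general knowledge of the system with earlier results of these data known, the 8 genes had a positive median log2 fold change in macrophages, as these did. In BMDMs labelled PHD2cko 14 of the 34 were called higher, 2 lower and 18 neither, with a median log2 fold change of 0.26 where that of all genes tested was 0.0002 and 3.38% of them were called higher and 3.35% lower. The median of the 8 genes was 0.21, and that of the 7 without Adm, which was under the floor, was 0.25. Of the 34, those with the smallest adjusted p were Pdk1 (log2 fold change 0.96, SE 0.0419), Ankrd37 (4.01, SE 0.193), Egln3 (1.96, SE 0.1), P4ha1 (0.71, SE 0.0488) and Tfrc (0.79, SE 0.0557). Pdk1 encodes a kinase that inhibits pyruvate dehydrogenase, and Egln3 encodes PHD3. P4ha1 encodes a collagen prolyl hydroxylase subunit and Tfrc the transferrin receptor. The genes called lower, named after their values were seen, were Sap30 (-0.68, SE 0.116), a subunit of a histone deacetylase complex, and Nfil3 (-0.26, SE 0.0642), a transcriptional repressor of the clock. By fold the rise of Ak4 lay between those of Egln3 and Ankrd37.

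**Figure D3:**
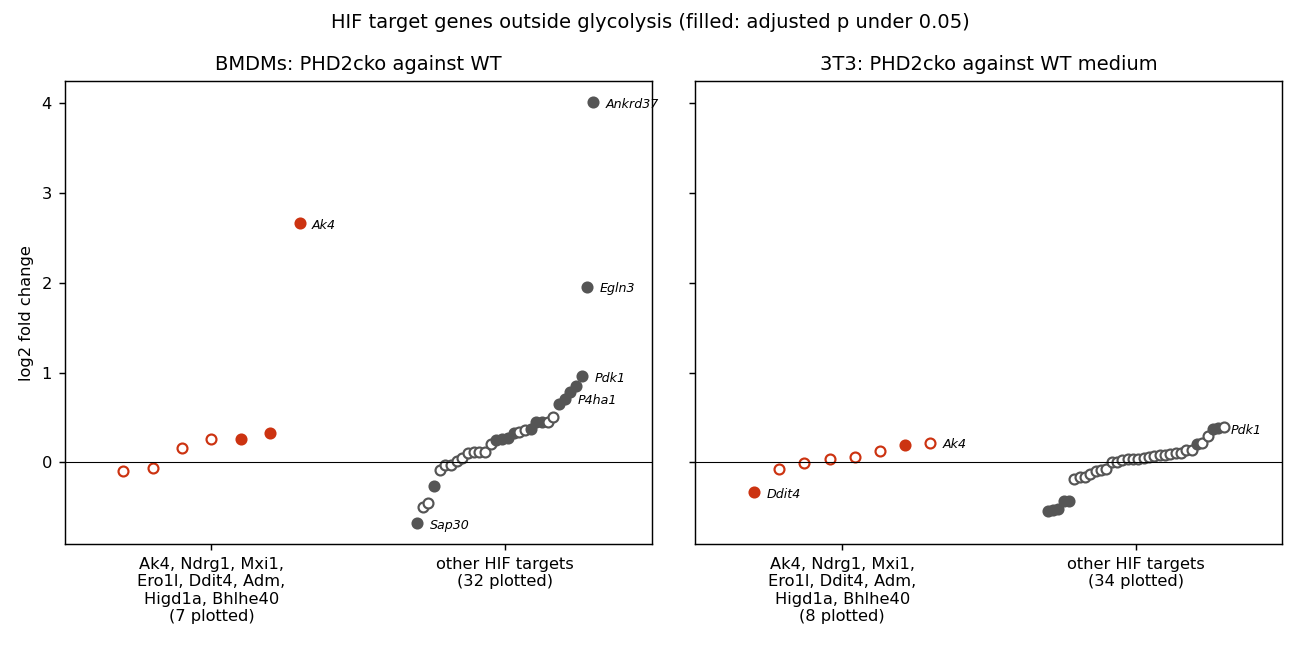
Log2 fold change (y axis) of the 8 genes (red) and of the 34 other HIF targets outside glycolysis (grey), in BMDMs on the left and 3T3 fibroblasts on the right, each circle 1 gene in order of its value and filled where the adjusted p was under 0.05. Genes under 0.2 CPM in both groups are not drawn, which leaves 7 and 32 circles in BMDMs, where Ankrd37 at 4.01 and Ak4 at 2.66 stand highest, while all values in fibroblasts lie within 0.6 of 0.

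In fibroblasts the same 34 genes were called higher in 3 cases and lower in 5, with a median log2 fold change of 0.04 where that of all genes tested was -0.005. The share called higher, 3 of 34, was near the 8.93% of all genes called higher in this comparison, while 6.75% of all genes were called lower. Those with the smallest adjusted p were Pdk1 (0.38, SE 0.0419), Cited2 (-0.43, SE 0.0576), a HIF-induced inhibitor of HIF, Nfil3 (-0.43, SE 0.0576), the secreted glycoprotein Stc2 (-0.52, SE 0.0855) and the collagen crosslinking enzyme Lox (-0.53, SE 0.109). Lox also counts among the fibroblast markers. The mitophagy receptor Bnip3l (0.20, SE 0.0424) and the collagen lysyl hydroxylase Plod2 (0.37, SE 0.0931) also rose, named after their values were seen. Without WT medium replicate 1, the library that stood apart by the chi-square, 13 of the 34 were called in place of 8. Over all genes 2757 were called in place of 2240. In the interaction test 13 of the 34 were called, every one with the lower effect in fibroblasts, as Ak4 was, where 4.58% of all genes had a lower and 7.71% a higher effect.

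The HIF subunits and their regulators showed no common direction. Hif1a itself was lower in BMDMs labelled PHD2cko, at 97.3 ± 0.875 CPM against 113 ± 1.79 CPM (log2 fold change -0.22, adjusted p = 0.00706), and was the only one of 7 tested that was called there. In fibroblasts Hif1a was higher in PHD2cko medium, at 276 ± 3.67 against 250 ± 7.80 CPM (0.14, adjusted p = 0.0354). Arnt2, a relative of the HIF partner ARNT, was lower there (-0.35, adjusted p = 0.0286). Of all genes 3.38% were called higher and 3.35% lower in BMDMs, and 8.93% and 6.75% in fibroblasts.

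The genes that work with each member were followed next. Ero1l passes electrons from protein disulphide isomerases, and 13 enzymes and chaperones of folding in the endoplasmic reticulum were tested. In BMDMs labelled PHD2cko 6 of these 13 were lower and none was higher, with a median log2 fold change of -0.20, where 3.35% of all genes were called lower, whereas Ero1l lay at 0.25. The chaperone Hspa5 (BiP) went from 716 ± 18.6 to 583 ± 4.05 CPM (log2 fold change -0.30, adjusted p = 0.00608). Pdia6, a disulphide isomerase, fell by 0.28 on the log2 scale (adjusted p = 0.0148), as did Txndc5 by 0.27 (0.00648), Canx by 0.21 (0.0124) and Hsp90b1 by 0.20 (0.0266). Ero1lb, the other oxidase of this kind, measured 74.4 CPM in WT and 74.7 CPM in PHD2cko BMDMs, and Ero1l took 44.6 ± 1.48% of their summed level per kilobase in WT and 49.0 ± 0.968% in PHD2cko. In fibroblasts, where Ero1l made up 96.7 ± 0.245% and 96.0 ± 1.43% of that sum, 2 of the 13 partners (Hsp90b1 and Calr) were lower in PHD2cko medium and none was higher, against 6.75% of all genes called lower.

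Ddit4 is also induced by ATF4, the transcription factor of the integrated stress response, and 12 genes of that response were tested. In BMDMs labelled PHD2cko 5 of them were lower and none higher, with a median log2 fold change of -0.26, where 3.35% of all genes were called lower. They were the transcription factor Atf5 (-0.65, adjusted p = 0.00013), the serine synthesis enzyme Phgdh (-1.32, adjusted p = 0.000247), asparagine synthetase Asns (-0.71, adjusted p = 0.000609), Sesn2 (-0.25, adjusted p = 0.0213), which like Ddit4 restrains mTORC1, and the glutathione-degrading enzyme Chac1 (-1.41, adjusted p = 0.0338). In fibroblasts 4 were lower in PHD2cko medium beside Ddit4 and 1 was higher, with a median of -0.17, where 6.75% of all genes were called lower and 8.93% higher. Ddit3 (CHOP) fell by 0.40 on the log2 scale (adjusted p = 0.00123), Ppp1r15a by 0.34 (0.00969), Atf5 by 0.27 (0.0166) and Sesn2 by 0.21 (0.022). Atf3 was higher (0.80, adjusted p = 0.0268), but its libraries overlapped between the media, and it measured 200 ± 1.60 CPM in WT BMDMs against 3.20 ± 0.633 CPM in fibroblasts in WT medium. Macrophage RNA was also higher in PHD2cko medium, and its part in the Atf3 value was not tested.

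**Figure D4:**
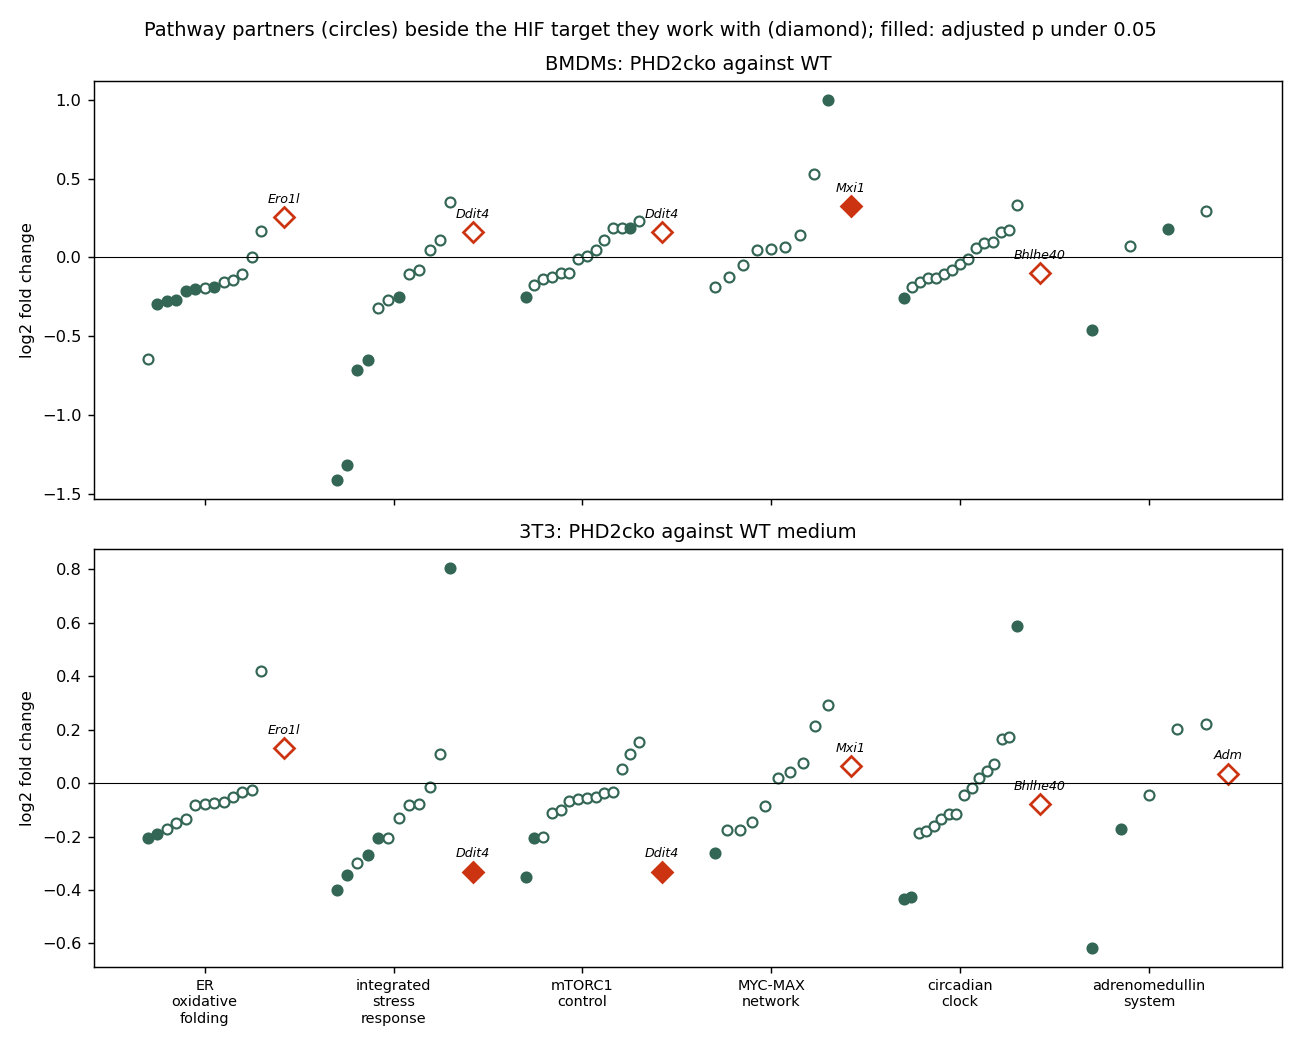
Log2 fold change (y axis) of the genes that work with Ero1l, Ddit4, Mxi1, Bhlhe40 and Adm (circles, 1 per gene) beside that gene itself (diamond), in BMDMs above and 3T3 fibroblasts below, on different scales, filled where the adjusted p was under 0.05. Genes under 0.2 CPM in both groups are not drawn. In BMDMs Ero1l lies at 0.25 above a group of folding enzymes whose median is -0.20, and in fibroblasts Ddit4 lies at -0.33 with 4 filled genes of the stress response below 0.

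Of 14 regulators of mTORC1, the kinase complex that Ddit4 holds back, Sesn1 was higher (0.19, adjusted p = 0.0367) and Sesn2 lower in BMDMs labelled PHD2cko. In fibroblasts Akt1s1, which encodes the mTORC1 inhibitor PRAS40, was lower in PHD2cko medium (-0.35, adjusted p = 0.000859), and so was Sesn2, with none higher. These counts, 1 higher and 1 lower in BMDMs and 2 lower in fibroblasts, stand beside 3.38% and 3.35% of all genes in BMDMs and 6.75% called lower in fibroblasts.

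Among the relatives of Ak4, 6 other adenylate kinases were tested and none was called in either comparison. The shares of all genes called were 3.38% higher and 3.35% lower in BMDMs, and 8.93% and 6.75% in fibroblasts. Ak4 went from 0.357 ± 0.0608% to 2.28 ± 0.18% of the summed adenylate kinase level per kilobase in BMDMs, and from 3.16 ± 0.382% to 3.82 ± 0.0725% in fibroblasts. Ndrg1 made up 77.7 ± 1.06% of the NDRG family per kilobase in WT BMDMs and 81.2 ± 0.823% in those labelled PHD2cko. In fibroblasts its share was 66.5 ± 1.37% in WT medium and 72.7 ± 1.27% in PHD2cko medium, where Ndrg3 was lower (-0.18, adjusted p = 0.0337). Ndrg4 was higher in BMDMs labelled PHD2cko (1.06, adjusted p = 0.0299) at a low level, 2.13 ± 0.431 CPM against 1.01 ± 0.441 CPM in WT.

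Within the network of MYC and MAX, 10 genes were tested beside Mxi1. Myc, which Mxi1 opposes, was higher in BMDMs labelled PHD2cko, at 2.83 ± 0.327 against 1.40 ± 0.466 CPM (1.00, adjusted p = 0.0236). The Mxi1 relative Mxd1 was lower in fibroblasts in PHD2cko medium (-0.26, adjusted p = 0.0308). The other genes of the network gave no call in these comparisons. By the same rule 3.38% of all genes were called higher and 3.35% lower in BMDMs, and 8.93% and 6.75% in fibroblasts.

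For Bhlhe40, 16 clock genes were tested, and Nfil3 was the only one called in BMDMs. There 3.38% of all genes were called higher and 3.35% lower. In fibroblasts, where 8.93% of all genes were called higher and 6.75% lower, Nfil3 and the output factor Dbp (-0.44, adjusted p = 0.00938) were lower in PHD2cko medium. Bhlhe41, the paralog of Bhlhe40, was higher there (0.59, adjusted p = 0.0194), with 9.05 ± 0.0488 CPM in WT medium and 13.5 ± 3.71 CPM in PHD2cko medium. Bhlhe41 stood at 115 ± 5.36 CPM in WT BMDMs, and its values of 16.8, 9.49 and 14.2 CPM in the 3 libraries in PHD2cko medium followed the order of their macrophage shares, 2.35, 0.523 and 2.11%. The part of macrophage RNA in this difference was not tested.

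Adrenomedullin acts through the receptor Calcrl paired with Ramp2 or Ramp3, whereas Calcrl with Ramp1 is the receptor of the related peptide CGRP, and Pam amidates adrenomedullin. While Adm was near absent from BMDMs, Calcrl was present at 64.5 CPM in WT and 67.8 CPM in PHD2cko libraries and was not called (adjusted p = 0.625). Ramp1 was lower in BMDMs labelled PHD2cko (29.1 ± 0.836 to 21.2 ± 1.27 CPM, log2 fold change -0.46, adjusted p = 0.00266), and Pam was higher (0.18, adjusted p = 0.0447). In fibroblasts, where Adm did not pass the threshold, Ramp3 was lower in PHD2cko medium (25.4 ± 3.88 to 16.6 ± 1.40 CPM, log2 fold change -0.62, adjusted p = 0.0109), and Pam was lower too (-0.17, adjusted p = 0.0236). Ramp1 also passed the test in fibroblasts (adjusted p = 0.0292), at a mean of 0.0121 CPM in WT medium and 0.156 CPM in PHD2cko medium, with at most 4 counts in any fibroblast library. No fold is given at such counts. The macrophage RNA was higher in PHD2cko medium as well, and its part in the Ramp1 value was not tested. Higd2a, the tested relative of Higd1a, measured 27.7 CPM in WT medium and 22.8 CPM in PHD2cko medium and was not called (adjusted p = 0.0739).

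Genes whose pattern over the 12 libraries was most like that of a member were ranked by Pearson's r of log2 CPM among 12847 genes. The libraries form 2 cell types, so that r mostly reads the step between BMDMs and fibroblasts and is given as a description only. The most similar gene was Tfrc for Ak4 (r = 0.993), with Armc6 and Dhrs9 next (both 0.980). For Ndrg1 it was Bnip3l (0.998), then Fos and Rala (both 0.996). Mxi1 was matched most by Ywhah (0.993), Tspan4 and Pea15a, Ero1l by Gng12 (0.992), Chst11 and Edil3, and Ddit4 by Tpm2 (0.998), Celf4 and Hdac11. Bhlhe40 had Ggact (0.992), Fech and Tars2, Adm had Hspb8, Mgat3 and Adh7, and Higd1a had the lowest value of the set, with Ufm1 (0.930), Gm8797 and Emg1. Tfrc and Bnip3l are themselves among the 34 other HIF targets.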

How the data were processed

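The authors sequenced polyadenylated RNA of 12 libraries as single reads and deposited estimated counts per gene, made with Kallisto on GRCm38 per the submitters' processing notes and summed to genes. The deposited counts are whole numbers, unnormalised and unfiltered, and how the estimates became whole is not given in the sources used here, nor are version and annotation. Groups and replicate numbers came from the labels. The members and the gene lists were chosen with earlier results of these data known.

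The tests were run in R 4.3.3 with edgeR 4.0.16. The rounded counts were filtered by filterByExpr with the 4 groups (14285 of 32544 genes kept), normalised by TMM and fitted for all 12 libraries together, with two-sided quasi-likelihood F-tests and Benjamini-Hochberg adjustment over all genes kept at a threshold of 0.05. The SE is the log2 fold change over the square root of F. Alternatives were limma 3.58.1 with voom (the test of the study's methods), DESeq2 1.42.0, DESeq2 size factors, other filters, a replicate block, the compared libraries alone, subtraction of the macrophage share and each library left out. The macrophage share is the marker sum of a fibroblast library over that of the BMDMs with the same label.

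All 8 members were named, and of each list at most the 5 called genes with the smallest adjusted p per comparison, other exceptions being stated. An allele that all BMDM groups share and 1 called gene of the lists are not reported here. Medians of lists were also taken without genes under 0.2 CPM in both groups, which left 0.26 for the other HIF targets in BMDMs. Intervals and floors cover counting error or the spread between libraries only. Same-numbered libraries did not deviate together (correlations of -0.113 to 0.0242). On simulated counts for BMDMs, with 14285 genes, 70 of 100 genes changed by 0.5 and 91 of 100 changed by 1 on the log2 scale were found, and 16 of 177 calls were false. For 3T3 fibroblasts the numbers were 73, 90, and 15 of 178.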

Additional observations from a re-analysis of the deposited data

Results flagged for a closer look

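Ak4 was the only gene of the set whose effect of the PHD2cko label differed between the cell types by a test of the difference itself. The label stood for genotype in BMDMs and for the source of the medium in fibroblasts, so exposure and cell type cannot be told apart. The log2 fold change in 3T3 fibroblasts minus that in BMDMs was -2.44 (SE 0.151, edgeR adjusted p = 2.25e-06). All 3 libraries labelled PHD2cko were above all 3 WT libraries in both cell types, from 1.51 ± 0.220 to 9.64 ± 0.791 CPM in BMDMs and from 20.3 ± 0.879 to 23.6 ± 1.51 CPM in fibroblasts (SD, n = 3). By the marker share at most 0.885% of the Ak4 count of a fibroblast library could be macrophage RNA.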

How the results depend on the processing

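Counts of calls depended on which libraries were fitted together, a choice that changes the estimate of spread and the normalisation at once. With only the libraries compared, 2534 genes were called in BMDMs in place of 961 and 912 in fibroblasts in place of 2240, and the members called in fibroblasts went from 2 to 0. Leaving out 1 library in turn gave 527 to 664 genes in BMDMs and 1260 to 2757 in fibroblasts, 0 to 2 members and 6 to 13 other HIF targets called in fibroblasts. Same-numbered libraries share only a number, and a replicate block left 1 member called in fibroblasts (Ddit4), added Ero1l in BMDMs and changed no other member's call.

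The reversed values all belonged to comparisons in which the gene was not called. Higd1a in fibroblasts, -0.003 on the log2 scale, became 0.00726 with DESeq2 size factors, 0.00718 with DESeq2's test, 0.00555 with limma-voom, 0.00268 with the replicate block, 0.0129 with the macrophage share subtracted, 0.00827 with at least 10 counts in every library and 0.00732 with only the libraries compared, and ran from -0.084 to 0.12 with 1 library left out. With 1 library left out, the values ran from -0.0097 to 0.081 for Adm in fibroblasts, from -0.015 to 0.33 for Ddit4 in BMDMs and from -0.16 to 0.034 for Higd1a in BMDMs, and the interaction from -0.029 to 0.075 for Bhlhe40 and from -0.037 to 0.18 for Higd1a. The cause of these shifts was not tested. Depth limits Ddit4 and Adm in BMDMs, with at most 42 and 2 counts per library. Adm in BMDMs, its interaction and its cell type comparison were not refitted.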
